A study of Mus musculus with 18 samples.

Results

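In 3 adipose tissues of the mouse, 8 genes of cholesterol synthesis and its control were followed: Hmgcs1, Idi1, Fdft1, Sqle, Lss and Cyp51, which encode enzymes of the pathway, and Srebf2 and Insig1, which encode its transcription factor and an anchor that holds that factor back. They were taken by symbol from a table of 54347 rows, of which 31886 carried a symbol and 18728 held enough counts to be tested. All 8 were found once, and all 8 passed the filter on low counts. The set had been named for synthesis and uptake, but none of the 8 encodes a lipoprotein receptor, so the uptake genes are described below from a pathway list. PolyA RNA was sequenced from interscapular brown (iBAT), inguinal white (iWAT) and epididymal white (eWAT) adipose tissue of C57BL/6N mice at 12 weeks of age, 3 ko mice and 3 wild type (wt) mice, which gave 18 libraries. In the ko animals a CRISPR/Cas9 deletion removed the first exon of the long noncoding RNA Gm15551 in every tissue, on the same strain background. The mice ate a chow diet. The question for these genes was whether their RNA differed between tissues, between genotypes and between animals.

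Cells make cholesterol from acetyl-CoA through the mevalonate pathway, which ends in farnesyl pyrophosphate, and a sterol branch that folds squalene into a ring and trims it to cholesterol. When sterols in the endoplasmic reticulum are low, the escort protein SCAP carries SREBP-2, the product of Srebf2, to the Golgi, where proteases release its active part. That part enters the nucleus and raises most genes of the pathway together. INSIG-1 holds SCAP in place when sterols are plentiful, and its gene is itself a target of SREBP factors. Adipose tissue stores much of the free cholesterol of the body in its lipid droplets and membranes, and it makes little of it compared with the liver.

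The letters before the start sites are shown first because SREBP factors bind sterol regulatory elements beside NF-Y boxes. The part of such sites in the levels described below was not tested. RefSeq promoters of build GRCm38.p6 were at hand for 6 of the 8 genes, all but Sqle and Fdft1. In the 250 bases before each start, both strands were searched for a sterol regulatory element core (TCACNCCA), for the same core read from its second base with 1 base more (CACNCCAC, which overlaps the first where both occur), and for the NF-Y box CCAAT. In the 3 stretches below, cut where the annotated transcripts begin, the cores and NF-Y boxes are in capitals, and an NF-Y box on the other strand reads ATTGG. They are the promoters that held a core.
Hmgcs1, chr13:119690101-119690350, plus strand: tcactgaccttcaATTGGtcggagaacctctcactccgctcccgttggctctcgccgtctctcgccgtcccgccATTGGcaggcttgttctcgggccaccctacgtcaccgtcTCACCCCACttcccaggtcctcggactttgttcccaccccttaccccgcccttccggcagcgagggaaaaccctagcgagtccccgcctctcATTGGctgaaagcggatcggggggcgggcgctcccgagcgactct
Srebf2, chr15:82147019-82147180, plus strand: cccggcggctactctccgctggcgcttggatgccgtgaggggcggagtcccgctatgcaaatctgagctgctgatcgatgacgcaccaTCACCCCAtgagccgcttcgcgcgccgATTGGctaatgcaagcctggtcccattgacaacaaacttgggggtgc
Insig1, chr5:28071162-28071362, plus strand: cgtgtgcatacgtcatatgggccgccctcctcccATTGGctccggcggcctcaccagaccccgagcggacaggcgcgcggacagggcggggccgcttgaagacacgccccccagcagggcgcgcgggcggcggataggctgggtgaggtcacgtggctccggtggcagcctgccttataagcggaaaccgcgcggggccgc
Hmgcs1 held TCACNCCA at position -137 from the RefSeq start, overlapping CACNCCAC at -136, and Srebf2 held TCACNCCA at -162. Insig1 held CACNCCAC on the minus strand at -9, past the end of the printed stretch. All 6 promoters held an NF-Y box, 3 of them in Hmgcs1 and 2 in Idi1. Of 32817 RefSeq promoters searched over the same length, 3.67% held TCACNCCA, 5.29% held CACNCCAC, 33.8% held CCAAT and 2.52% held either core together with CCAAT. An Sp1 box (GGGCGG) was in all 6 promoters and in 32.7% of the 32817, and an E-box (CACGTG) was in Insig1 alone of the 6 and in 6.02% of the 32817. These are matches of letters in a window, and no binding was measured.

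The libraries held between 14997901 and 34389586 estimated counts, and levels are given as CPM, counts scaled to library size with TMM factors. The deleted gene followed the labels: Gm15551 had 40 to 316 counts in the 9 wt libraries and 0 to 4 in the 9 ko libraries. Transcripts of the mitochondrial genome took 22.9% to 27.0% of the counts in iBAT and 3.77% to 9.64% in the white tissues. The sum of 6 brown adipocyte markers lay between 6260 and 11732 CPM in iBAT but between 6.63 and 221 in the white libraries, as the tissue labels have it. In 4 white libraries genes of another tissue stood high. Markers of lymph node summed to 1147 CPM in iWAT wt 3 and 458 in iWAT ko 2 against 5.2 to 17.8 in the other iWAT libraries, skeletal muscle markers to 4386 in iWAT ko 1, and epididymis markers to 4843 in eWAT ko 3. The sum of 6 adipocyte markers was 7809 CPM in iWAT wt 3, 11409 in iWAT ko 2 and 10043 in eWAT ko 3, against 14964 to 22894 in the other white libraries. Lower sums of such genes were in further eWAT libraries, with epididymis markers at 16.9 CPM in eWAT wt 1, testis markers at 5.19 in eWAT wt 1 and 6.79 in eWAT wt 2, and lymph node markers at 76.9 in eWAT ko 2. The fits were repeated without the 4 libraries, and changed calls of the genes described in full are given beside them. The part of the other tissues was not tested beyond that.

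**Figure D1:**
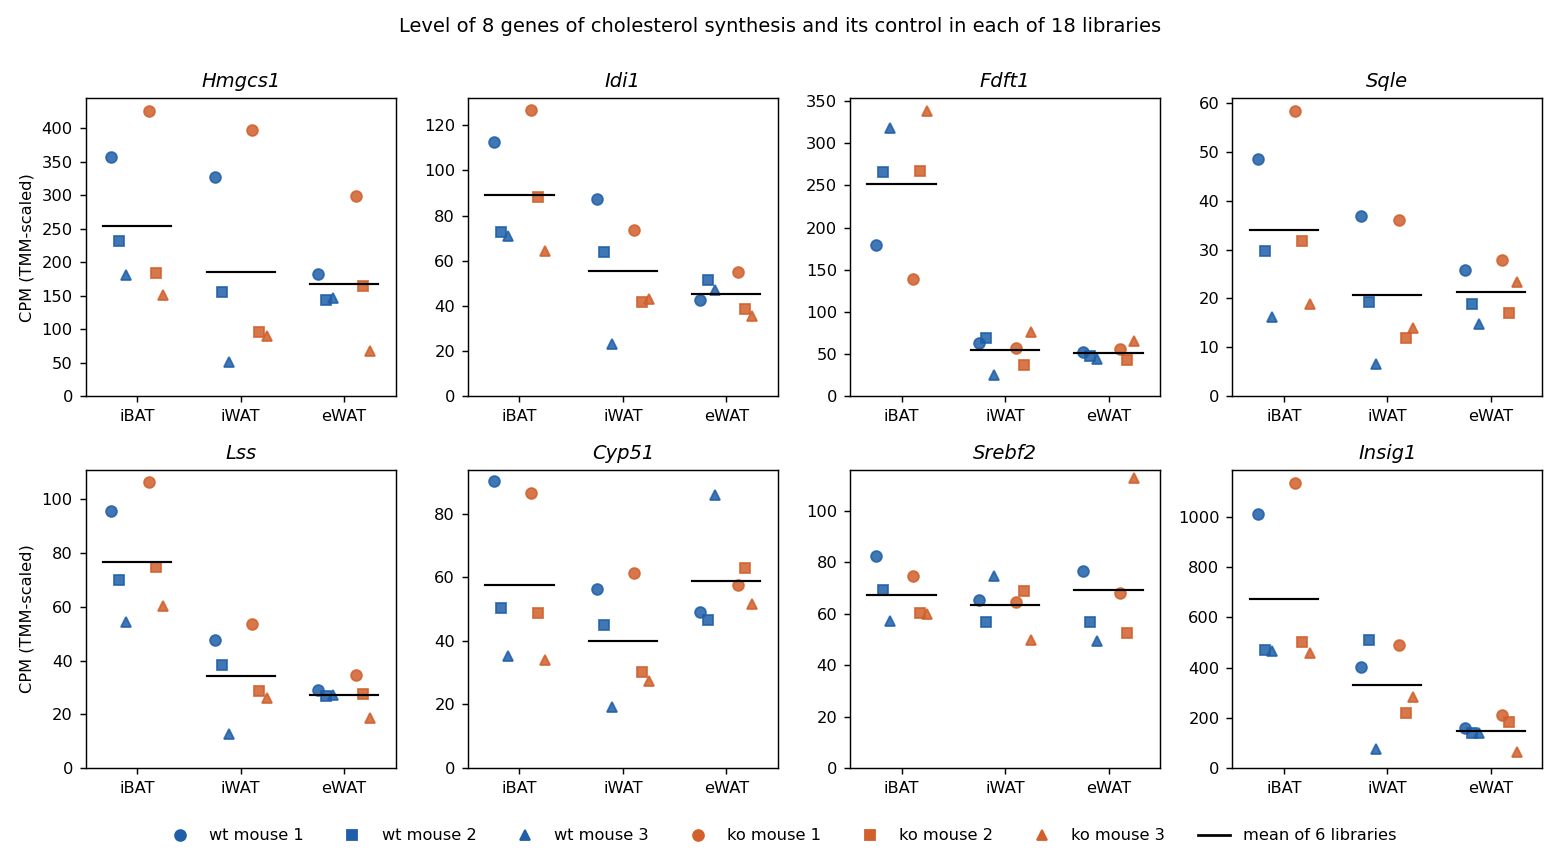
Level of each of the 8 genes in TMM-scaled CPM (linear axis from 0) in iBAT, iWAT and eWAT. Each point is 1 library, blue for wt and orange for ko, the symbol marks the mouse number, and the line is the mean of the 6 libraries of a tissue. The 6 iBAT libraries of Fdft1, from 139 to 338 CPM, lie above all 12 white libraries.

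Between brown and white tissue, 4 of the 8 genes were higher in iBAT than in iWAT, and the same 4 were higher in iBAT than in eWAT: Idi1, Fdft1, Lss and Insig1. None was lower. Fdft1 rose the most, 4.62-fold over iWAT and 4.89-fold over eWAT, followed over eWAT by Insig1 at 4.51-fold. The test was edgeR's quasi-likelihood F-test with Benjamini-Hochberg adjustment over all 18728 genes and a threshold of 0.05. Of all genes, 54.3% passed between iBAT and iWAT, 24% higher and 30.3% lower in iBAT, and 54.6% passed between iBAT and eWAT, 24.4% higher and 30.2% lower. Passing the test in these contrasts is thus the common case among genes, and 4 of 8 is close to it. The median log2 fold change of the 8 genes was 0.69 against iWAT and 0.83 against eWAT, where the median of all genes was -0.14 and -0.17. Since these are pieces of whole tissue, fewer cells of a type and less RNA per cell cannot be told apart.

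Fdft1 (ENSMUSG00000021273.11, at GRCm38 chr14:63145150-63179578, minus strand, in an annotation that holds an earlier version of the record) encodes squalene synthase, which commits farnesyl pyrophosphate to sterols. In iBAT it stood at 180, 266 and 318 CPM in wt mice 1, 2 and 3 and at 139, 267 and 338 in ko mice 1, 2 and 3. In iWAT it stood at 62.7, 68.7 and 25 CPM in the wt mice and at 57.5, 36.7 and 76.2 in the ko mice. In eWAT it stood at 52.3, 48.3 and 44.1 CPM in the wt mice and at 55.6, 43.5 and 65.5 in the ko mice. No iBAT library overlapped a white one, and in each of the 6 mice iBAT was the highest, by 2.42 to 12.7 times over iWAT. The log2 fold change was 2.21 ± 0.26 (SE) over iWAT (edgeR, adjusted p = 2.87e-06) and 2.29 ± 0.26 over eWAT (adjusted p = 1.57e-06). It passed the test under all 39 other settings tried in both contrasts. One limit is its neighbour: 774 of its 4227 exonic bases (18.3%) also lie in exons of Ctsb, the cathepsin B gene, on the other strand, and whether counting used strand is not given in the sources used here. Ctsb stood at 2055 ± 74.2 CPM (SD, n = 6) in iBAT, 1652 ± 198 in iWAT and 1099 ± 297 in eWAT. Its own log2 difference was 0.32 over iWAT (adjusted p = 0.139) and 0.90 over eWAT (adjusted p = 3.74e-04).

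Lss (ENSMUSG00000033105.12, chr10:76531588-76557138, plus strand) encodes lanosterol synthase, which closes the sterol rings. In iBAT it stood at 95.4, 69.9 and 54.2 CPM in the wt mice and at 106, 74.8 and 60.3 in the ko mice. In iWAT it stood at 47.5, 38.4 and 12.5 CPM in the wt mice and at 53.5, 28.6 and 25.9 in the ko mice. In eWAT it stood at 29.0, 26.7 and 27.3 CPM in the wt mice and at 34.5, 27.6 and 18.6 in the ko mice. The lowest iBAT library was just above the highest iWAT library, and iBAT was the highest tissue in each of the 6 mice. The log2 fold change was 1.16 ± 0.27 over iWAT (edgeR, adjusted p = 0.00192) and 1.49 ± 0.28 over eWAT (adjusted p = 2.34e-04). With the 9 wt libraries alone the first of these kept its size, 1.16, but missed the threshold (adjusted p = 0.0562).

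Insig1 (ENSMUSG00000045294.11, chr5:28071363-28078662, plus strand) was the most abundant of the 8 per length in each tissue. In iBAT it stood at 1013, 471 and 467 CPM in the wt mice and at 1133, 501 and 456 in the ko mice. In iWAT it stood at 400.0, 509 and 75.7 CPM in the wt mice and at 488, 218 and 282 in the ko mice. In eWAT it stood at 160, 138 and 140.2 CPM in the wt mice and at 213, 183 and 61.9 in the ko mice. Every iBAT library was above every eWAT library, whereas iBAT and iWAT overlapped, and wt mouse 2 had more in iWAT than in iBAT. The log2 fold change was 2.17 ± 0.42 over eWAT (edgeR, adjusted p = 3.12e-04) and 1.03 ± 0.40 over iWAT (adjusted p = 0.0391). The second of these did not hold without the 2 iWAT libraries that held lymph node genes, 1 of which was the lowest of all iWAT libraries: it was then 0.68 (adjusted p = 0.132), and 0.73 without all 4 libraries (adjusted p = 0.0897). Leaving out any 1 of iBAT wt 1, iBAT ko 1, iWAT wt 3, iWAT ko 2, iWAT ko 3, eWAT wt 2 or eWAT wt 3 also took its adjusted p over the threshold, to between 0.0502 and 0.115.

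Idi1 (ENSMUSG00000058258.14, chr13:8885501-8892451, plus strand) encodes isopentenyl diphosphate isomerase, which readies the small carbon units for joining. In iBAT it stood at 113, 72.9 and 70.8 CPM in the wt mice and at 127, 88.4 and 64.4 in the ko mice. In iWAT it stood at 87.5, 63.8 and 23.3 CPM in the wt mice and at 73.5, 41.9 and 43.0 in the ko mice. In eWAT it stood at 42.8, 51.5 and 47.0 CPM in the wt mice and at 55.2, 38.8 and 35.6 in the ko mice. All iBAT libraries were above all eWAT libraries, and within each mouse iBAT was above both white tissues, though iBAT and iWAT overlapped between mice. The log2 fold change was 0.99 ± 0.26 over eWAT (edgeR, adjusted p = 0.00430) and 0.69 ± 0.26 over iWAT (adjusted p = 0.0336). Without the 2 iWAT libraries with lymph node genes the second was 0.42 (adjusted p = 0.135), without all 4 libraries it was 0.49 (adjusted p = 0.125), and leaving out any 1 of iBAT wt 1, iBAT ko 1, iBAT ko 2, iWAT wt 3, iWAT ko 2 or iWAT ko 3 took its adjusted p to between 0.0528 and 0.0939.

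The other 4 genes did not pass that test in either contrast. Hmgcs1 (ENSMUSG00000093930.2, chr13:119690379-119708260, plus strand) encodes HMG-CoA synthase, an early step of the mevalonate pathway, and its mean was 255 ± 111 CPM (SD, n = 6) in iBAT, 186 ± 142 in iWAT and 167 ± 75.3 in eWAT. Sqle (ENSMUSG00000022351.14, chr15:59315077-59331192, plus strand) encodes squalene epoxidase, an oxygen-using and often limiting step, and its mean was 33.9 ± 16.6 CPM in iBAT, 20.8 ± 12.8 in iWAT and 21.3 ± 5.21 in eWAT. Both had wide overlaps between tissues, yet within each of the 6 mice iBAT was above iWAT for both. When each mouse was its own block, Hmgcs1 passed against iWAT (log2 fold change 0.65, edgeR adjusted p = 0.0384, against 0.45 ± 0.46 and 0.422 without the block) and Sqle passed against iWAT (0.79, adjusted p = 0.00589, against 0.70 ± 0.39 and 0.142) and against eWAT (0.54, adjusted p = 0.0402, against 0.67 ± 0.39 and 0.157). Sqle also passed against iWAT without iWAT wt 1 (1.003, adjusted p = 0.0420). The block raised the number of the 8 genes past the threshold to 6 against iWAT and 5 against eWAT, where 55.6% and 55.7% of all genes passed, and it left Idi1, Fdft1, Lss and Insig1 called in both.

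Cyp51 (ENSMUSG00000001467.5, chr5:4081145-4104746, minus strand), the lanosterol demethylase gene, was the only enzyme of the 8 whose mean in eWAT was not below that in iBAT. Its mean was 57.6 ± 24.9 CPM in iBAT, 39.9 ± 17 in iWAT and 59.0 ± 14.5 in eWAT, and iBAT was above iWAT in 6 of 6 mice, by 1.12 to 1.84 times, and above eWAT in 3 of 6. Srebf2 (ENSMUSG00000022463.8, chr15:82147181-82205379, plus strand) lay nearly level, at 67.2 ± 9.99 CPM in iBAT, 63.3 ± 8.94 in iWAT and 69.3 ± 23.5 in eWAT, with 1 library, eWAT ko 3, at 113 CPM. Its log2 fold change was 0.08 ± 0.18 over iWAT and -0.04 ± 0.18 over eWAT. With TMM scaling the RNA of the factor did not differ detectably between tissues where 4 genes of its pathway did, but scaled by library totals it was called lower in iBAT in both contrasts, and the amount of active factor was not measured.

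Between the white tissues, 0 of the 8 genes passed the test (edgeR, 1 of 8 at an unadjusted p under 0.05, Insig1), where 10.2% of all genes did, 5.7% higher and 4.5% lower in iWAT. Insig1 was 1.14 ± 0.40 higher in iWAT on the log2 scale (adjusted p = 0.0829), and without the 2 iWAT libraries that held lymph node genes the same difference passed the test (1.49, adjusted p = 0.0146), as it did without all 4 libraries (1.27, adjusted p = 0.0247) and without iWAT wt 3 alone. The log2 fold change of Cyp51 was -0.56 ± 0.30 (adjusted p = 0.258), and the other 6 differed by -0.13 to 0.33.

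**Figure D2:**
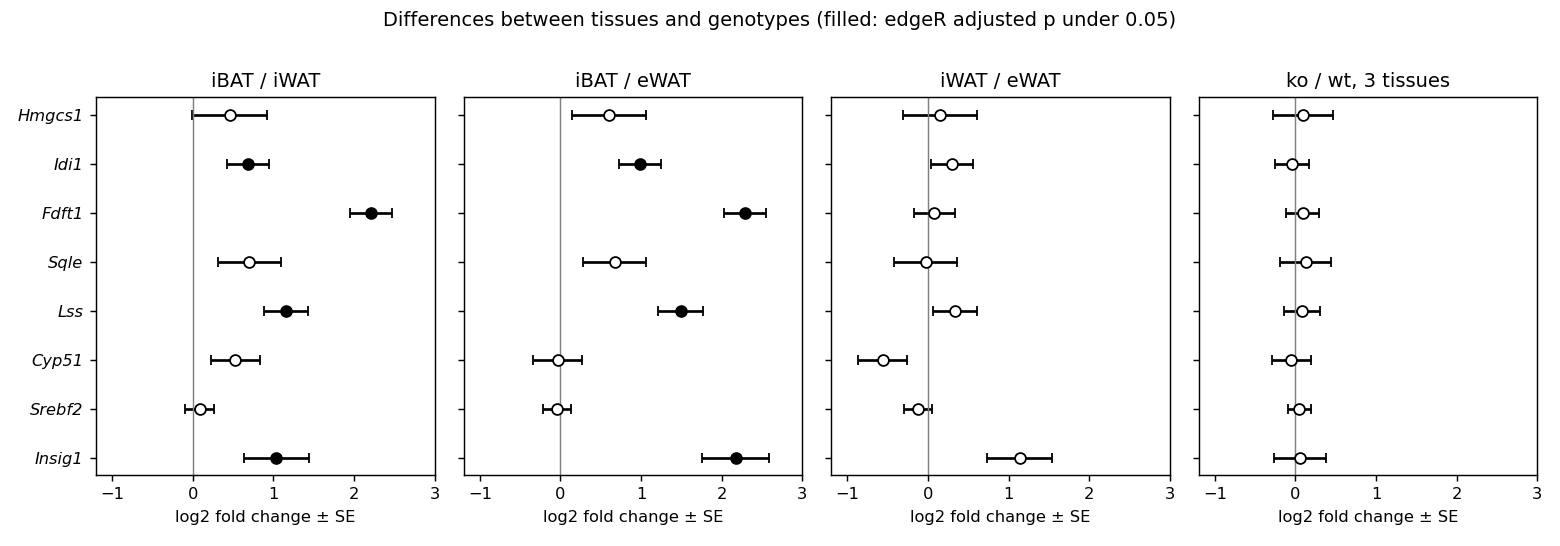
Log2 fold change of each of the 8 genes (x axis, bars are 1 SE) for iBAT over iWAT, iBAT over eWAT, iWAT over eWAT and ko over wt across the 3 tissues, with filled points at an edgeR adjusted p under 0.05. Idi1, Fdft1, Lss and Insig1 are filled in both brown contrasts, and no point is filled between the white tissues or between genotypes.

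How the libraries are scaled set the sign of the smaller differences. Scaled by library totals alone, which hold the large mitochondrial share of iBAT, the median of all genes moved from -0.14 to -0.95 on the log2 scale against iWAT and from -0.17 to -1.04 against eWAT. The share of called genes that were higher in iBAT went from 44.2% to 10.1% and from 44.7% to 10.7%. Under that scaling Hmgcs1, Idi1, Sqle, Cyp51 and Srebf2 turned to lower values in iBAT than in iWAT, while Fdft1, Lss and Insig1 kept higher values, and the test called 1 of the 8 higher (Fdft1) and 1 lower (Srebf2, adjusted p = 0.00545). Against eWAT it called 3 of the 8 higher (Fdft1, Lss and Insig1) and 2 lower, Cyp51 (-0.93, adjusted p = 0.00366) and Srebf2 (-0.95, adjusted p = 9.61e-04). Of all genes, 76.0% were called against iWAT and 78.7% against eWAT under that scaling. Relative to the median of all genes, Idi1 was then 0.86 above it, close to its 0.83 with TMM.

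Between genotypes, 0 of the 8 genes passed the test across the 3 tissues (edgeR, 0 of 8 also at an unadjusted p under 0.05). Of all genes 0.00534% passed, which is 1 gene of 18728, Gm15551 itself. The log2 fold changes, ko over wt, ran from -0.05 for Cyp51 to 0.13 for Sqle with SEs of 0.15 to 0.37, and every adjusted p was 0.9999. The means of wt and ko lay close beside the spread between mice. In iBAT Hmgcs1 was at 256 ± 90.6 CPM (SD, n = 3) in wt and 253 ± 150.3 in ko, and Insig1 at 650.0 ± 314 in wt and 697 ± 378 in ko. Within single tissues 0 of 8 passed as well (edgeR, 0 of 8 at an unadjusted p under 0.05 in each), where 0% of all genes passed in iBAT, 0% in iWAT and 0.00534% in eWAT. The largest of these 24 differences was Srebf2 in eWAT, 0.35 ± 0.25 (adjusted p = 1), where eWAT ko 3, the library with epididymis genes, was the highest of all 18. The interaction of genotype with tissue called 0 of 8 (edgeR, 0 of 8 unadjusted) and 0% of all genes. The fit across tissues took the 3 libraries of each mouse as separate samples, so its SEs can be too small for genes that vary between mice. With 3 mice a genotype and this spread, differences the size of these SEs or somewhat larger were not detectable.

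Between mice of the same genotype most of these genes varied alike in iBAT. In iBAT, mouse 1 was the highest and mouse 3 the lowest for 7 of the 8 genes, in wt and in ko alike, and Fdft1 ran the other way round in both. Hmgcs1 in iBAT was 356, 231 and 180 CPM in wt mice 1, 2 and 3 and 426, 183 and 151 in ko mice 1, 2 and 3. Sqle in iBAT was 48.5, 29.8 and 16.2 CPM in the wt mice and 58.3, 31.7 and 18.8 in the ko mice. Same-numbered wt and ko mice carry neighbouring identifiers in the labels, which name no shared litter or day, and they were not treated as pairs. Over the 8 genes, the deviations of same-numbered mice correlated in iBAT with r of 0.97, 0.71 and 0.95, in iWAT with 0.92, -0.51 and 0.14, and in eWAT with 0.10, -0.36 and -0.20. Over 14997 genes the values were 0.50, -0.0051 and 0.41 in iBAT, 0.64, -0.59 and -0.31 in iWAT, and -0.35, 0.38 and -0.29 in eWAT. In iBAT the mice numbered 1, and those numbered 3, thus deviated alike in other genes as well.

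In iWAT, mouse 1 was the highest for 5 of 8 genes in wt and 6 of 8 in ko. Hmgcs1 in iWAT was 326, 156 and 50.9 CPM in the wt mice and 397, 95.9 and 90.3 in the ko mice, and Sqle was 36.9, 19.3 and 6.66 in the wt mice and 36.1, 11.9 and 13.9 in the ko mice. The wt library of mouse 3, which held lymph node genes, was the lowest for 7 of 8. In eWAT the spread was smaller in wt: mouse 1 was the highest for 6 of 8, with Hmgcs1 at 182, 144 and 147 CPM and Sqle at 25.8, 18.9 and 14.7. In the ko eWAT libraries Hmgcs1 was at 299, 164 and 68.3 CPM and Sqle at 27.9, 17 and 23.4, mouse 1 was the highest for 5 of 8, and mouse 3, whose library held epididymis genes, was the lowest for 5 of 8. The sum of the 6 brown adipocyte markers in iBAT was also the highest in mouse 1 and the lowest in mouse 3 of each genotype, 10441, 8571 and 6790 CPM in the wt mice and 11732, 9732 and 6260 in the ko mice. The part of brown adipocyte content, or of other tissue in the white samples, in the difference between mice was not tested.

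**Figure D3:**
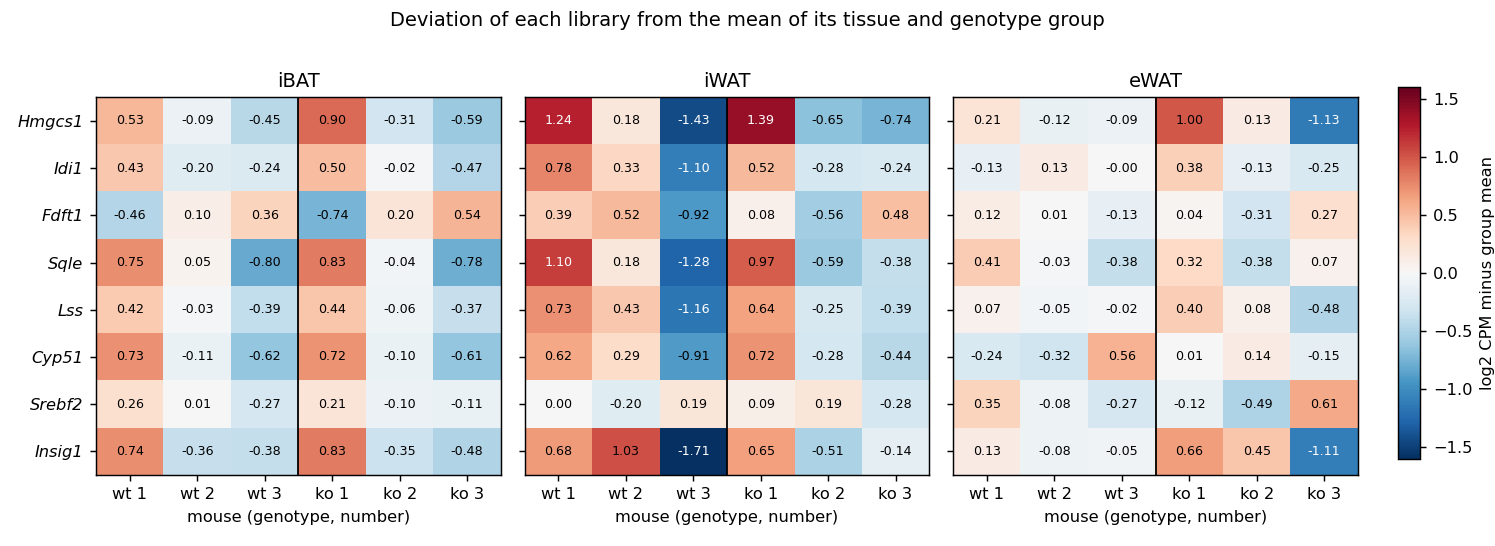
Log2 CPM of each of the 8 genes (rows) in each library (columns, by mouse) minus the mean of the 3 libraries of its tissue and genotype, in red above and blue below the mean, with the value printed. In iBAT the columns of mouse 1 are red and those of mouse 3 blue for 7 genes in both genotypes, with Fdft1 the reverse, and the lowest column is iWAT wt 3, where the median of the 8 genes was -1.13.

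Split into tissue, genotype and mouse within genotype, 67.8% of the sum of squares of log2 CPM of Hmgcs1 over the 18 libraries lay between mice, and 63.0% of that of Sqle, where the median of all genes was 15.4%. Cyp51 followed with 33%, Idi1 with 31.6%, Lss with 23.0%, Insig1 with 21.9%, Srebf2 with 18.9% and Fdft1 with 4.85%. Tissue held the largest share for Fdft1 (85.5%), Lss (65.8%), Insig1 (60.4%) and Idi1 (47.1%), against a median of 45.9% over all genes. Genotype held at most 1.29% in any of the 8. A test of differences between the 3 mice of a genotype, chosen after these values had been seen, called 0 of the 8 genes (edgeR, 4 degrees of freedom), where 0.315% of all genes passed. At an unadjusted p under 0.05 it named 5 of 8, Hmgcs1, Sqle, Lss, Idi1 and Insig1, beside 2934 of all 18728 genes, and the adjusted p of Hmgcs1 and of Sqle was 0.0624, at ranks 88 and 85 of all genes. Without the 2 iWAT libraries that held lymph node genes it called 2 of the 8 and 0.613% of all genes, and without all 4 libraries in which genes of another tissue stood high it called 3 and 0.942%.

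**Figure D4:**
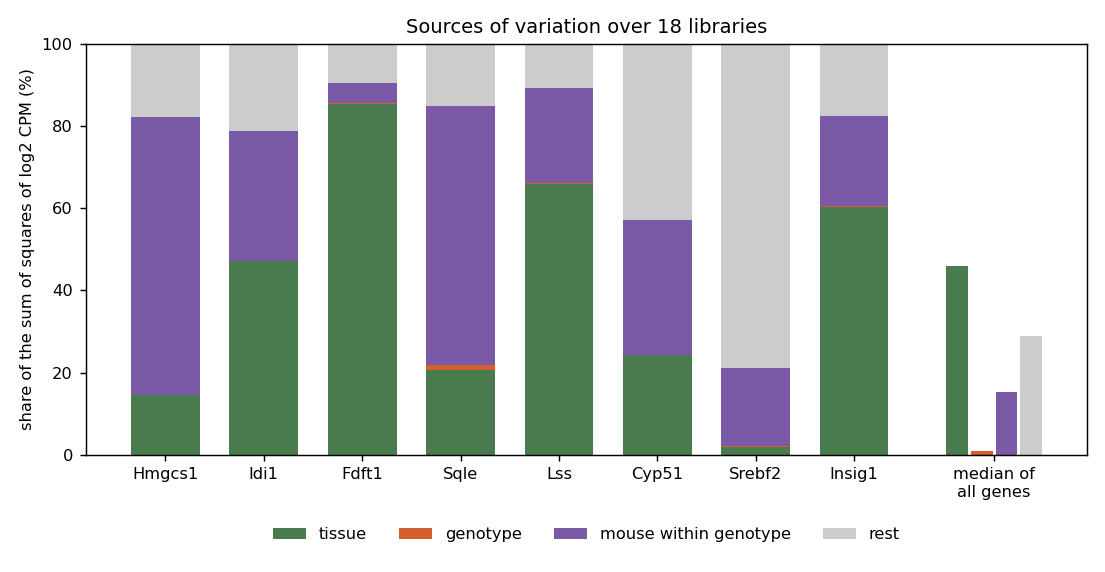
Share of the sum of squares of log2 CPM over 18 libraries (y axis, percent) held by tissue, genotype, mouse within genotype and the rest, as stacked bars for the 8 genes and, side by side, as medians over all 18728 genes tested. The mouse share of Hmgcs1 (67.8%) and Sqle (63.0%) stands above the median of 15.4%, and Fdft1 is almost wholly tissue (85.5%).

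Once the mean of each tissue and genotype group was taken off, 6 of the 8 genes kept to one pattern over the 18 libraries. The Pearson correlation of a gene's log2 CPM with the mean z-score of the other 7 was 0.95 for Idi1, 0.95 for Lss, 0.94 for Sqle, 0.88 for Hmgcs1, 0.82 for Insig1 and 0.81 for Cyp51. For Fdft1 it was 0.04 and for Srebf2 -0.07. Over the 28 pairs it ran from -0.29 to 0.96 with a median of 0.76. These values describe 18 libraries from 6 mice that share library, depth and tissue make-up gene by gene. Among 14989 other genes, the 10 whose centred pattern was most like the mean of the 8 were Dynll2, Bcl2l2, Atp9a, Ncan, Nfe2l1, Dnajb4, Pm20d1, Gm6277, Ppp2r5b and Copg1, with r from 0.95 to 0.96. Without centring, the 10 were Ergic1, Mbnl2, Ppp1r3c, Def8, Trak1, Gnb1, St7l, Rheb, Nfe2l1 and Bicd2, with r from 0.94 to 0.97. None of these 20 places went to a gene of the pathway lists. Among the list genes near the top of the centred order, named here after their values were seen, were Nsdhl at rank 22 (r = 0.94) and Msmo1 at rank 75 (r = 0.91). Other list genes, picked in the same way, lay far from that pattern or ran against it. Scap had r = 0.0014, Lbr r = -0.79 (rank 14372) and Mylip r = -0.88 (rank 14827).

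The wider pathway was read from 5 lists that hold 54 genes with the 8 included, of which 53 were tested. Of these, 19 were higher and 8 lower in iBAT than in iWAT, and 18 were higher and 8 lower than in eWAT, against 24% higher and 30.3% lower of all genes over iWAT. Between the white tissues 0 of the 53 passed (edgeR, 7 at an unadjusted p under 0.05), where 10.2% of all genes did. Between genotypes across tissues 0 of 53 passed (edgeR, 0 at an unadjusted p under 0.05), where 0.00534% of all genes did. The test between mice of a genotype called 1 of the 53, Hsd17b7 of the sterol branch (edgeR, adjusted p = 0.0313), where 0.315% of all genes passed. At an unadjusted p under 0.05 it named 15 of the 53, beside 2934 of 18728 genes.

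Among 9 enzymes of the mevalonate pathway, 4 were higher in iBAT in each contrast and none lower: Acat2, Pmvk, Idi1 and Fdps. Of all genes 24% and 24.4% were higher, and 54.3% and 54.6% passed in either direction. The median log2 fold change of the 9 was 0.45 over iWAT and 0.61 over eWAT. Acat2, which makes the acetoacetyl-CoA that HMG-CoA synthase uses, stood at 362 ± 41.9 CPM in iBAT, 127 ± 41.4 in iWAT and 99.4 ± 35.2 in eWAT, a log2 fold change of 1.51 ± 0.24 (adjusted p = 5.06e-05) and 1.88 ± 0.24 (adjusted p = 4.92e-06). Among 13 enzymes of the sterol branch, 5 were higher in iBAT than in iWAT (Fdft1, Lss, Nsdhl and Dhcr7 among them) and 1 lower (Lbr, a sterol reductase of the nuclear envelope), and over eWAT 4 were higher and Lbr lower. Without the 2 iWAT libraries with lymph node genes, 3 of the 13 passed over iWAT instead of 6, and Nsdhl (0.56, adjusted p = 0.0693) and Dhcr7 (0.59, adjusted p = 0.108) were among those lost, though both passed without all 4 libraries. Nsdhl also missed the threshold without iBAT ko 1 (adjusted p = 0.0598) or iWAT ko 2 (adjusted p = 0.0510). The median of the 13 was 0.53 in both contrasts.

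Of 12 regulators, 4 were higher in iBAT in each contrast, among them Insig1, Rnf139 and Erlin2, and Erlin1 was lower, with a median over the 12 of 0.16 and 0.06. Of all genes 24% were higher and 30.3% lower against iWAT, and 24.4% and 30.2% against eWAT. The 5 of 12 called in each contrast thus do not exceed the 54.3% and 54.6% of all genes that passed. Scaled by library totals, Rnf139 turned lower in iBAT in both contrasts and Erlin2 against eWAT. Over eWAT the call of Erlin2 (0.46 ± 0.17, adjusted p = 0.0290) was lost without any 1 of iBAT wt 1, eWAT ko 1, eWAT wt 2, eWAT ko 2 or eWAT wt 3 (adjusted p from 0.0554 to 0.0721). Srebf1, whose SREBP-1 product drives mainly fatty acid synthesis, had log2 fold changes of 0.10 (adjusted p = 0.688) and 0.41 (adjusted p = 0.0719), Scap 0.39 (adjusted p = 0.101) and 0.06 (adjusted p = 0.804), and Insig2, the second anchor, -0.08 (adjusted p = 0.655) and -0.22 (adjusted p = 0.196). None of these 3 passed the edgeR test in either contrast with TMM scaling of all 18 libraries. Scaled by library totals, Insig2 was called lower in iBAT in both contrasts (-0.87, adjusted p = 1.89e-06, and -1.08, adjusted p = 1.25e-07), as was Srebf1 (-0.68, adjusted p = 0.00129, and -0.45, adjusted p = 0.0185), and Scap was called lower than in eWAT (-0.84, adjusted p = 0.00419). Under that scaling the median of all genes was itself well below 0 in both contrasts, -0.95 against iWAT, so these calls are not particular to the 3 genes. Several calls turned on single libraries. Without eWAT ko 3, the library with epididymis genes, Scap was higher in iBAT than in iWAT (0.39, adjusted p = 9.74e-05) and than in eWAT (0.38, adjusted p = 2.19e-04). Srebf1 passed over eWAT without iBAT ko 1 (0.52, adjusted p = 0.0216) or iWAT wt 3 (0.40, adjusted p = 0.0204), and without both libraries with lymph node genes (0.40, adjusted p = 0.0226). Without all 4 libraries Scap passed in both contrasts, Srebf1 (0.36, adjusted p = 0.0419) and Insig2 (-0.30, adjusted p = 0.0110) passed against eWAT, and 8 instead of 5 of the 12 regulators did so.

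For uptake, 10 of 11 listed genes could be tested, and 4 were higher in iBAT in each contrast, among them Vldlr, Npc1 and Lipa. Of all genes 24% and 24.4% were higher. In either direction 5 of the 10 passed against iWAT and 6 against eWAT, close to the 54.3% and 54.6% of all genes. The median of the 10 was 0.36 over iWAT and 0.37 over eWAT. Vldlr, a receptor for triglyceride-rich lipoproteins, stood at 230 ± 18.7 CPM in iBAT, 60.5 ± 21.4 in iWAT and 41.4 ± 11.2 in eWAT, a log2 fold change of 1.93 ± 0.23 (adjusted p = 2.66e-06) and 2.48 ± 0.23 (adjusted p = 1.47e-07). Npc1 and Lipa encode proteins that free cholesterol from lysosomes. Lrp1, a receptor for remnant particles, was lower in iBAT than in both white tissues (-1.24 ± 0.22 and -1.15 ± 0.22), and Scarb1, the HDL receptor gene, was lower than in eWAT (-0.55 ± 0.20, adjusted p = 0.0320). That call of Scarb1 was lost without any 1 of iBAT wt 1, iBAT ko 1, iBAT wt 2, eWAT wt 2, eWAT ko 2 or eWAT wt 3 (adjusted p from 0.0513 to 0.101), and without iBAT ko 3 or eWAT ko 3 Scarb1 was lower than in iWAT as well (adjusted p = 0.04997 and 0.0305), as it was without all 4 libraries (-0.55, adjusted p = 0.0380).

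Of 9 genes of efflux and storage, 5 were lower and 2 higher in iBAT than in iWAT, beside 30.3% and 24% of all genes. Against eWAT 4 were lower and 2 higher, beside 30.2% and 24.4%. Their median was -1.08 against iWAT and -0.74 against eWAT. The 2 higher genes, named after their values were seen, were Nr1h2, which encodes the sterol-sensing receptor LXR-beta (0.66 ± 0.07, adjusted p = 1.33e-06, and 0.67 ± 0.07, adjusted p = 7.95e-07), and Cyp27a1, the sterol 27-hydroxylase gene (0.89 ± 0.13, adjusted p = 2.58e-05, and 0.47 ± 0.13, adjusted p = 0.00524), though scaled by library totals Nr1h2 turned lower in both contrasts and Cyp27a1 against eWAT. Soat1, which esterifies cholesterol, stood at 2.76 ± 0.50 CPM in iBAT, 17 ± 14.8 in iWAT and 17.3 ± 15.3 in eWAT, a log2 fold change of -2.64 ± 0.55 (adjusted p = 7.16e-04) and -2.59 ± 0.55 (adjusted p = 8.01e-04). Against iWAT it was -1.998 without iWAT wt 3 and -1.45 without both libraries with lymph node genes (adjusted p = 0.00659), and against eWAT it was -2.03 without all 4 libraries (adjusted p = 6.88e-07). Abcg1, an efflux pump, was lower than in iWAT (-1.90 ± 0.40, adjusted p = 7.36e-04, and -0.99 without the lymph node libraries, adjusted p = 0.00490). Against eWAT Abcg1 missed the threshold (-0.90 ± 0.39, adjusted p = 0.0622) but passed under 12 of 39 alternatives, with a mouse block (adjusted p = 0.0385), with DESeq2 (adjusted p = 0.0453), without all 4 libraries (adjusted p = 8.28e-04) and without any 1 of iWAT wt 3, iWAT ko 2 or eWAT ko 3 among them. Ch25h, which makes 25-hydroxycholesterol, had 2 to 6 counts per iBAT library, 0.24 ± 0.10 CPM, and 1.89 ± 3.53 CPM in eWAT, a log2 fold change of -2.67 ± 1.06 (adjusted p = 0.0410). Without eWAT ko 3 the value was -0.99 (adjusted p = 0.251), and the call was lost under 19 of 38 alternatives, with the mouse block (-2.03, adjusted p = 0.110), wt libraries only (-0.33, adjusted p = 0.835) and without all 4 libraries (-0.96, adjusted p = 0.153) among them. Leaving out any 1 of iBAT wt 1, iBAT ko 1, iBAT ko 2, iBAT ko 3, iWAT ko 1, iWAT ko 2, iWAT ko 3 or eWAT wt 1 also ended it (adjusted p from 0.0512 to 0.0931). Against iWAT it passed without iWAT ko 3 (-2.51, adjusted p = 0.0499) or eWAT ko 3 (-2.19, adjusted p = 0.0107). The 6 macrophage markers summed to between 64.5 and 161 CPM in iBAT, against 160 to 1655 in the white libraries, with the highest sums in the 2 iWAT libraries with lymph node genes. Their part in the levels of Soat1, Abcg1 and Ch25h was not tested.

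**Figure D5:**
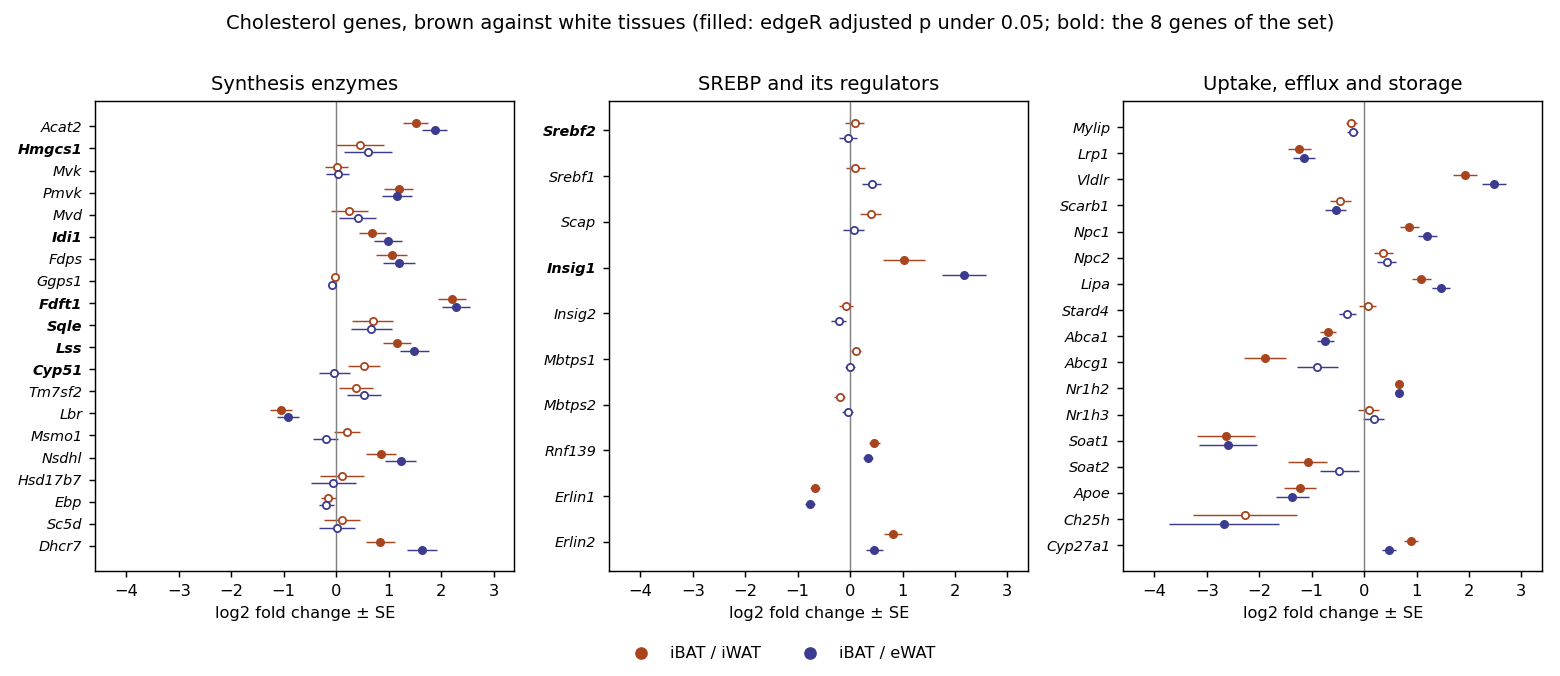
Log2 fold change with 1 SE (x axis) of tested genes of the lists for iBAT over iWAT (red) and iBAT over eWAT (blue), grouped as synthesis enzymes, SREBP and its regulators, and uptake, efflux and storage, with filled points at an edgeR adjusted p under 0.05 and the 8 genes in bold. Filled points lie to the right for Acat2, Fdft1 and Vldlr and to the left for Lrp1 and Soat1.

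Per length of merged exons, Insig1 led in each tissue, at 218 CPM per kb in iBAT, 106 in iWAT and 48.2 in eWAT. In iBAT, Fdft1 (59.4 CPM per kb) and Hmgcs1 (55.4) came next and lay within each other's spread over mice, then Idi1 (25.5), Cyp51 (13.0), Srebf2 (9.35), Lss (7.12) and Sqle (6.11). In iWAT, Hmgcs1 was second at 40.5 and in eWAT at 36.4 CPM per kb. Besides Fdft1, exons were shared with another gene over 12.1% of the exonic bases of Hmgcs1 (with Gm48342), 9.22% of Idi1, 3.53% of Lss and 3.76% of Cyp51, and over none of Sqle, Srebf2 and Insig1, so the counts of the first 4 of these carry the same doubt about strand.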

How the data were processed

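PolyA RNA was sequenced from iBAT, iWAT and eWAT of 3 wt and 3 ko mice (paired-end, NEBNext Ultra II). The authors filtered reads with cutadapt and deposited estimated counts per gene from salmon, which maps reads to transcripts, as whole numbers. The reference was GENCODE M22 (GRCm38), alone or joined with RNAcentral. Which of these served this table, how transcripts were summed to genes, whether strand was used and the tool versions are not given in the sources used here. Libraries with the same mouse identifier in the labels came from 1 animal, so tissues are paired by animal, and the mouse block is an alternative. Counts were scaled with TMM and tested with edgeR 4.0.16 (quasi-likelihood, R 4.3.3) on tissue and genotype over 18 libraries, after its default filter by group, with Benjamini-Hochberg adjustment over 18728 genes. Genotype within a tissue and the interaction came from group means. Likeness and shares of variance used log2(CPM + 0.5). Alternatives used DESeq2 1.42.0, limma 3.58.1, other scalings and filters, and fewer libraries. The same code was run on simulated counts with known changes and recovered such changes, at a rate not given here. That run checks the code only. Power and error rates for the genes described here, several of which varied widely between mice, were not tested by it. Positions and exon lengths are from GENCODE M21 (GRCm38) and promoters from RefSeq (GRCm38.p6).

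The 8 genes and all lists were chosen with earlier results of these data known. Genes named were the 8, Scap, Insig2, Srebf1, in each tissue contrast the 2 list genes outside the 8 with the largest change called in each direction, list genes called between genotypes (none) and the 10 most alike in each likeness measure (mean CPM of at least 1). Some list genes enter the counts and medians of their lists but are not reported here by name. Genes named beside a count otherwise were picked after their values were seen.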

Additional observations from a re-analysis of the deposited data

How the results depend on the processing

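Of the 8 genes, 4 were called between iBAT and iWAT, and 24 of 39 alternatives kept that count within 1.5 times. It fell to 2 with upper quartile scaling, library totals (1 higher and 1 lower), no filter on low counts, limma voom and ko libraries only. It was also 2 with a test against a log2 fold change of 0.5 and without the 2 iWAT libraries that held lymph node genes. The same held without all 4 libraries in which genes of another tissue stood high. With wt libraries only it fell to 1, and leaving out 1 library or mouse gave 2 to 5. The share of all genes called was 54.3% in the main fit. It was 55.2% with upper quartile scaling, 76.0% with library totals, 24.9% with no filter and 55.1% with voom. In ko libraries only it was 31.9%, in wt only 37.8%, and with the test against 0.5 it was 33.1%. Without the lymph node libraries it was 45.4%, and without all 4 it was 45.3%. Idi1 and Insig1 account for most of the lost calls, whereas Fdft1 kept its call in all 39. The count against eWAT stayed at 3 to 5, though with library totals 2 of the 5 were lower in iBAT. Between iWAT and eWAT 1 gene (Insig1) instead of 0 was called with DESeq2, limma voom, without the lymph node libraries and without all 4, and leaving out 1 library gave 0 to 1. The test between mice called 1 gene with library totals and without eWAT, 2 without the lymph node libraries, 3 without all 4 and 0 to 1 without 1 library. Alternatives called 0 of the 8 between genotypes, the replicate number as a block included, which called 3 of all genes instead of 1. That number was not taken to pair wt with ko mice, since over 14997 genes same-numbered mice deviated with r of 0.50, -0.0051 and 0.41 in iBAT, but 0.64, -0.59 and -0.31 in iWAT and -0.35, 0.38 and -0.29 in eWAT. Some log2 differences turned sign, most of them small beside their SE, and the causes were not tested. With library totals these were, against iWAT, Hmgcs1 -0.31, Idi1 -0.092, Sqle -0.083, Cyp51 -0.26, Srebf2 -0.75, Scap -0.41, Srebf1 -0.68, Rnf139 -0.37, Nr1h2 -0.15, against eWAT Hmgcs1 -0.27, Sqle -0.24, Scap -0.84, Srebf1 -0.45, Rnf139 -0.55, Erlin2 -0.44, Nr1h2 -0.21, Cyp27a1 -0.38, and between the white tissues Fdft1 -0.032. With upper quartile scaling they were Srebf2 -0.012 against iWAT and Scap -0.032 against eWAT, and with at least 10 counts in every library Srebf2 -0.017 and Scap -0.028. Without the lymph node libraries they were Srebf1 -0.063 against iWAT and Sqle 0.33 between the white tissues. Without all 4 they were Srebf1 -0.14 against iWAT, Srebf2 0.15 against eWAT, Sqle 0.16 between the white tissues, and Hmgcs1 -0.035, Sqle -0.028, Lss -0.014, Srebf2 -0.11 for ko over wt. In ko libraries only they were Srebf1 -0.0092 against iWAT and Scap -0.25 against eWAT, and in wt only Srebf2 0.19 against eWAT, with Sqle 0.080 and Srebf2 0.11 between the white tissues. With voom they were Srebf2 0.21 against eWAT, Sqle 0.32 and Srebf2 0.089 between the white tissues, and Hmgcs1 -0.037, Fdft1 -0.0065, Sqle -0.055, Srebf2 -0.049 for ko over wt. Hmgcs1 was -0.057 between the white tissues with the mouse as a replicate block, and for ko over wt -0.049 with the number as a block and -0.023 with the mouse as a random effect. The sum of the 3 libraries of each mouse gave Fdft1 -0.034, Cyp51 0.0039, Insig1 -0.021 for ko over wt. Leaving out 1 library or mouse spanned 0 for Srebf1 -0.042 to 0.23 against iWAT, for Cyp51 -0.27 to 0.20, Srebf2 -0.13 to 0.18 and Scap -0.023 to 0.38 against eWAT, for Hmgcs1 -0.27 to 0.42, Fdft1 -0.037 to 0.23, Sqle -0.33 to 0.16, Srebf2 -0.26 to 0.12 between the white tissues, and for Hmgcs1 -0.66 to 0.49, Idi1 -0.32 to 0.15, Fdft1 -0.14 to 0.20, Sqle -0.33 to 0.59, Lss -0.22 to 0.29, Cyp51 -0.36 to 0.16, Srebf2 -0.081 to 0.15, Insig1 -0.37 to 0.29 for ko over wt.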
